A study of Homo sapiens with 28 samples.

Results

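The genes described here are 31 established target genes of the tumor suppressor p53, taken from a fixed list, matched by Ensembl gene identifier and followed across 9 groups of leukemia cell line libraries. All 31 had an RPKM value (reads per kilobase of gene, scaled to the mapped reads of the library), among 22391 genes in the deposited table. For splicing, 203 of 100814 events belonged to them, in 27 of the 31 genes.

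RNA-seq was done on MOLM13 cells, an acute myeloid leukemia line with the MLL-AF9 fusion, and on MV4;11 cells, an acute myeloid leukemia line with the MLL-AF4 fusion. The cells carried a lentiviral short hairpin against MBNL1, an RNA-binding splicing factor, or the non-targeting hairpin shNT. The groups were MOLM13 with shMBNL1-64 (3 libraries) and shNT (3), both after 72 hours of puromycin selection, MOLM13 with shMBNL1-65 (4) and a second shNT set (3), MV4;11 with shMBNL1-64 (3), shMBNL1-65 (3) and shNT (3), and MOLM13 at 12 days with shMBNL1-64 (3) and shNT (3). The labels of the earliest MOLM13 knockdown libraries name MBNL1 without a hairpin number, which came from the study's methods. No time after transduction is given for the shMBNL1-65 or MV4;11 libraries in the sources used here. Each library is a bulk culture of a single line, and only the 12-day libraries are stated to be biological replicates, so elsewhere p-values measure the spread between libraries, which may be technical. The hairpins differ in how much MBNL1 they left: 2.94 to 4.65 RPKM with shMBNL1-64 and 8.26 to 15.4 RPKM with shMBNL1-65, against 17.5 to 28.6 RPKM with shNT.

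p53 is a transcription factor that is kept low by the ubiquitin ligase MDM2 and its partner MDM4, and that is stabilized when DNA damage or another stress blocks them. Stabilized p53 binds response elements near its target genes and switches on proteins that arrest the cell cycle, repair DNA, start cell death and, through MDM2, shut p53 down again. The cell cycle arm runs through CDKN1A (p21), which blocks cyclin-dependent kinases and lets the DREAM complex repress genes of mitosis and DNA replication.

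The lines kept myeloid markers in every library, with LYZ (lysozyme) at 531 to 3912 RPKM and CD33 at 14.2 to 22.8 RPKM. CD3E, CD2, MS4A1, HBB, EPCAM and DCN, which mark lymphoid, erythroid, epithelial and stromal cells, were at 0.175 RPKM or less in every library, while CD3D, another T cell gene, ranged over 0.0147 to 12.2 RPKM and KRT18, a keratin gene, over 1.14 to 10.6 RPKM. The steps between low RPKM values gave relative depths of 0.28 to 1 against the deepest library, with shMBNL1-65 MOLM13 libraries at 0.559 to 0.776 and their shNT libraries at 0.379 to 0.46. The 12-day libraries were sequenced on another instrument.

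Some libraries stood apart within their groups. Both MOLM13 libraries numbered 3 in the earliest set, shMBNL1-64 and shNT, exceeded the other 4 libraries of that set for 14 of 28 p53 targets, against 29.6% of all genes, and fell below them for 4, against 28.8% of all genes. BTG2, an antiproliferative gene that is also an immediate early gene, was the extreme case, at 45.0 RPKM in the shMBNL1-64 library and 77.1 RPKM in the shNT library numbered 3, with 6.23 to 9.16 RPKM in the others. Same-numbered libraries of this set deviated together across genes (r of 0.799 to 0.882), so this comparison was also fitted with the replicate number as a block. In MV4;11 the shNT library numbered 3 stood apart from the other controls for MDM2, with 51.5 RPKM beside 93.5 and 77.4 RPKM, and results without it are given as well. The number of targets, or of all genes, for which it stood apart was not counted.

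**Figure D1:**
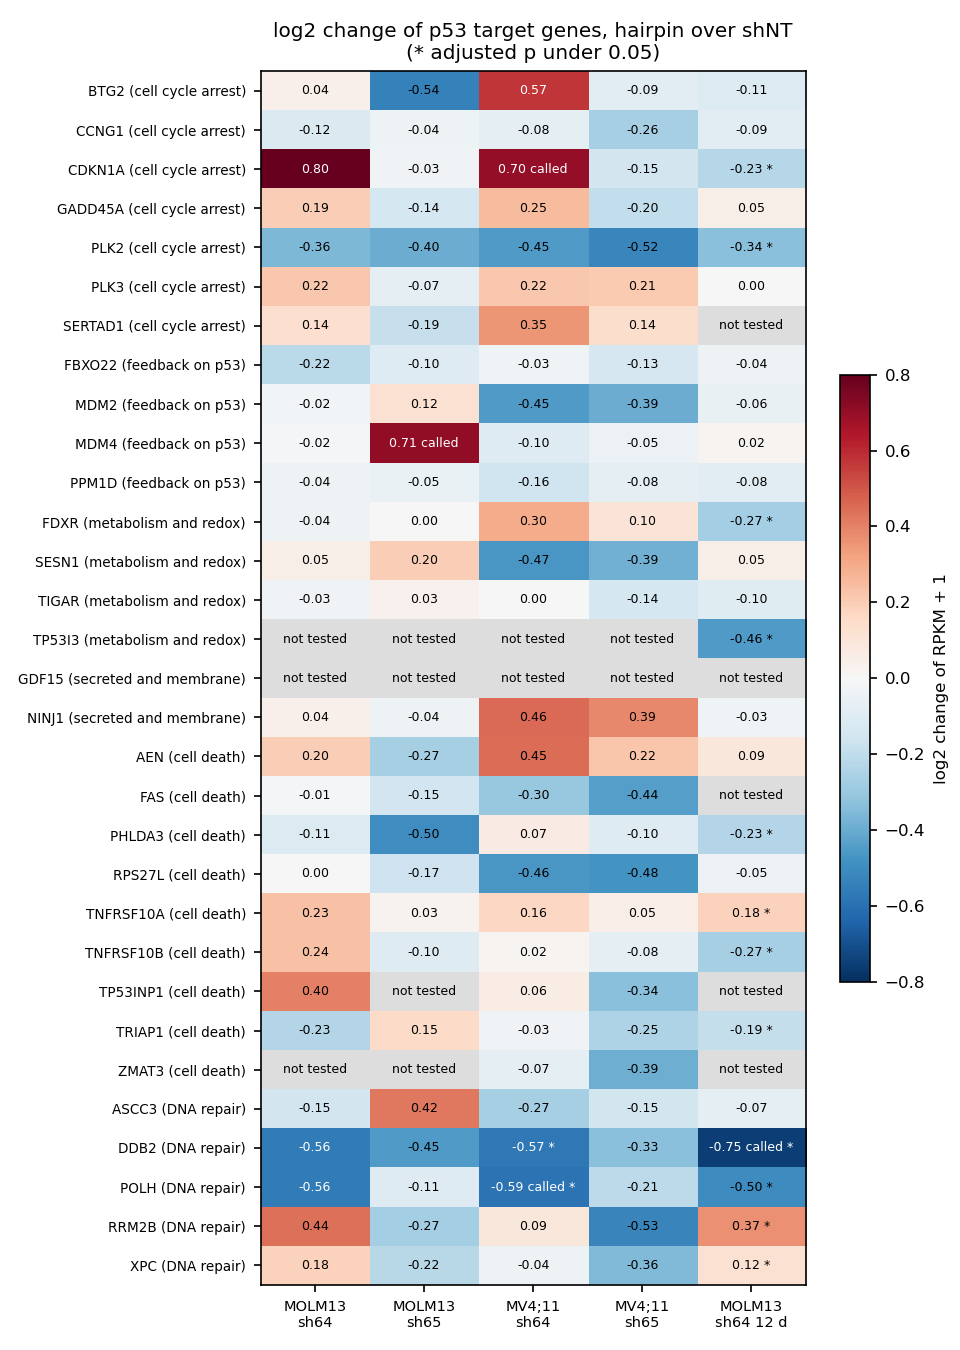
Log2 change of log2(RPKM + 1), hairpin over shNT, for the 31 p53 target genes (rows, with their role) in the 5 knockdown comparisons (columns); "called" marks genes past both limits of the call rule (limma), an asterisk those past the adjusted limit of 0.05, and grey a gene below the level tested. DDB2 and PLK2 are among the genes negative in all 5 columns, while CDKN1A runs between 0.80 and -0.23.

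Levels of the targets spanned a wide range. Averaged over the 28 libraries, the highest were RPS27L (65.7 RPKM), CDKN1A (46.1 RPKM) and MDM2 (40.5 RPKM), and the lowest were GDF15 (0.106 RPKM), TP53I3 (0.637 RPKM) and ZMAT3 (0.819 RPKM). GDF15, a secreted stress cytokine, did not reach a mean of 1 RPKM in any group and was not tested. RPS27L has a close paralog, RPS27, so its level is uncertain where reads could match either gene. RPKM is scaled by gene length, so these levels can be compared between genes.

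The 12-day cultures held less mRNA of many targets in both arms. All 6 libraries of the 12-day set lay below the other 22 for 12 of 30 targets that reached the level tested in some group, against 1.68% of all such genes. Those were CDKN1A, MDM2, FDXR, SESN1, PLK3, PLK2, BTG2, TNFRSF10B, FAS, PHLDA3, RPS27L and GADD45A. TP53I3, a quinone oxidoreductase gene, was the reverse case, above the other 22 libraries in all 6, a pattern shared by 2.17% of genes. Time in culture, the instrument and the set of cells cannot be told apart in this pattern, and it was shared by both arms. In bulk libraries, fewer cells with an active gene and less RNA per cell cannot be told apart either.

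A search for p53 response elements was made from 3000 bases before to 1000 bases after the start site of each gene in GRCh37, as a pair of adjacent p53 consensus half-sites with both cores intact and at most 2 mismatches elsewhere. The element reads alike on both strands, and no other promoter motif was searched. It was found in 8 of 31 targets (25.8%), namely AEN, BTG2, CCNG1, CDKN1A, FAS, GDF15, PLK2 and TNFRSF10B, and in 371 of 20162 protein-coding genes (1.84%). A match is a description of these letters and not a measured binding site. The elements of PLK2 and CDKN1A, cell cycle genes whose RNA is described next, are shown in 60-base windows, read along each gene's own strand, with the element in capitals. PLK2 has the only element without a mismatch among the targets, at chr5:57758081-57758140 (minus strand, centred at -2198 bases from the start site), and the CDKN1A element, with 2 mismatches, lies at chr6:36644206-36644265 (plus strand, at -2255 bases from the start site).
PLK2: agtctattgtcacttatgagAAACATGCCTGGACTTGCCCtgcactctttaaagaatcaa
CDKN1A: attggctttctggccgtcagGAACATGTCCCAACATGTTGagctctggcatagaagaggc

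The first question was whether MBNL1 knockdown moved the p53 targets as a group. A gene was called when limma gave it an unadjusted p up to 0.01 and it also differed by 1.5-fold or more on the log2(RPKM + 1) scale. No comparison had more than 2 called targets, and the direction was mixed. With shMBNL1-64 in MOLM13, 0 of 28 tested targets were called (3 at an unadjusted p under 0.05), against 1.33% of all genes called higher and 1.09% lower, and no gene passed an adjusted p under 0.05 (0% of all genes). With shMBNL1-65 in MOLM13, MDM4 was called higher among 27 tested targets, against 1.76% of all genes higher and 1.48% lower, and 0 targets passed an adjusted p under 0.05, against 0.00985% of all genes.

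In MV4;11, shMBNL1-64 gave a higher call for CDKN1A and a lower one for POLH among 29 tested targets, against 3.89% of all genes higher and 2.62% lower. At an adjusted p under 0.05, DDB2 and POLH passed, both lower (2 of 29 targets), against 7.8% of all genes. With shMBNL1-65 in MV4;11, 0 of 29 targets were called (8 at an unadjusted p under 0.05), against 1.78% of all genes higher and 1.85% lower, and 0 passed an adjusted p under 0.05, against 1.9% of all genes. At 12 days, DDB2 alone of 26 tested targets was called, lower, against 3.27% of all genes higher and 2.25% lower. At an adjusted p under 0.05, 3 targets were higher and 9 lower at 12 days (12 of 26), against 49.7% of all genes.

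The center of the list moved little. Its median log2 change was -0.01 with shMBNL1-64 in MOLM13 (0.00 over all genes), -0.10 with shMBNL1-65 in MOLM13 (0.05), -0.03 with shMBNL1-64 in MV4;11 (0.01), -0.15 with shMBNL1-65 in MV4;11 (0.06) and -0.08 with shMBNL1-64 at 12 days (0.04). Negative changes numbered 15 of 28, 20 of 27, 15 of 29, 23 of 29 and 19 of 26 in the same order. The share of all genes with a negative change was not counted. The MV4;11 comparisons share their shNT libraries.

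Of the DNA repair targets, DDB2 was lower with both hairpins, in both lines and at 12 days. DDB2 encodes the damage-recognition subunit that finds ultraviolet lesions in chromatin for nucleotide excision repair. It was measured at 22.6, 22.2 and 23.1 RPKM with shMBNL1-64 in MOLM13, against 33.5, 33.4 and 34.7 RPKM with shNT. With shMBNL1-65 in MOLM13 it was at 30.5, 32.5, 26.7 and 27.2 RPKM, against 38.5, 48.3 and 34.9 RPKM with shNT. Every knockdown library lay below every control in both sets, by a wider margin with shMBNL1-64.

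The same order held in MV4;11 and at 12 days. DDB2 was at 17.2, 14.9 and 16.4 RPKM with shMBNL1-64 and at 19.5, 20.3 and 18.0 RPKM with shMBNL1-65 in MV4;11, against 24.1, 24.7 and 24.8 RPKM with shNT. At 12 days it was at 8.19, 8.68 and 7.80 RPKM with shMBNL1-64, against 14.4, 15.2 and 14.0 RPKM with shNT. No knockdown library overlapped its controls, and DDB2 was the only one of 25 targets tested throughout that was lower without overlap in all 5 comparisons, against 0.191% of all genes. None was higher without overlap in all 5, against 0.638% of all genes.

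The change was past both parts of the call rule only at 12 days, where DDB2 fell by 0.75 on the log2 scale (SE 0.05, adjusted p = 2.76e-05, limma) to 56.6% of control. In the other comparisons the log2 changes were -0.56 (SE 0.11, adjusted p = 0.20) with shMBNL1-64 in MOLM13, -0.45 (SE 0.14, adjusted p = 0.19) with shMBNL1-65 in MOLM13, -0.57 (SE 0.10, adjusted p = 0.026) with shMBNL1-64 in MV4;11 and -0.33 (SE 0.10, adjusted p = 0.13) with shMBNL1-65 in MV4;11 (limma). In MV4;11 with shMBNL1-64 and in the earliest MOLM13 set its unadjusted p was under 0.01 and its fold under 1.5. It was called in 5 of 14 alternatives for MV4;11 (log2 changes -0.59 to -0.61) and, in MOLM13, with all 6 shNT libraries as controls (-0.68). With the replicate block the MOLM13 value with shMBNL1-64 had an adjusted p of 0.0090, over a range of 0.0013 to 0.82 in its 15 alternatives. The exact two-sided permutation p was 0.1 where 3 libraries were set against 3 and 0.0286 for shMBNL1-65 in MOLM13, in each case the smallest that the design allows.

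POLH, the translesion DNA polymerase eta that copies past ultraviolet lesions, was lower with shMBNL1-64 in each setting, while its groups overlapped with shMBNL1-65. With shMBNL1-64 it was at 8.07, 8.21 and 6.63 RPKM in MOLM13, against 11.5, 12.3 and 11.4 RPKM with shNT, and at 5.70, 6.33 and 5.92 RPKM at 12 days, against 8.60, 9.18 and 8.87 RPKM with shNT. In MV4;11 it was at 8.04, 8.04 and 8.32 RPKM with shMBNL1-64 and at 10.2, 11.1 and 11.4 RPKM with shMBNL1-65, against 15.5, 13.3 and 10.1 RPKM with shNT. In MOLM13 with shMBNL1-65 it was at 10.4, 11.1, 14.7 and 16.3 RPKM, against 11.1, 16.6 and 14.8 RPKM with shNT. The 3 shMBNL1-64 groups lay wholly below their controls, at 65.2%, 67.3% and 62.7% of the shNT mean in MOLM13, at 12 days and in MV4;11, and both shMBNL1-65 groups overlapped theirs. How many of all genes did the same was not counted.

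POLH was called in MV4;11 with shMBNL1-64 (log2 change -0.59, SE 0.15, adjusted p = 0.049, limma), where leaving out any library but the shNT library numbered 3 ended the call, at log2 changes of -0.46 to -0.61. At 12 days its log2 change of -0.50 (SE 0.05, adjusted p = 0.00013, limma) was past the adjusted threshold and under 1.5-fold, and in the earliest MOLM13 set the change was -0.56 (SE 0.13, adjusted p = 0.24; adjusted p = 0.012 with the replicate block, 0.012 to 0.84 over 15 alternatives). In MV4;11 the hairpins differed directly, with POLH lower with shMBNL1-64 than with shMBNL1-65 (log2 difference -0.39, SE 0.07, adjusted p = 0.0051, limma). The difference between the hairpins was -0.46 (SE 0.25, adjusted p = 0.71) in MOLM13.

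**Figure D2:**
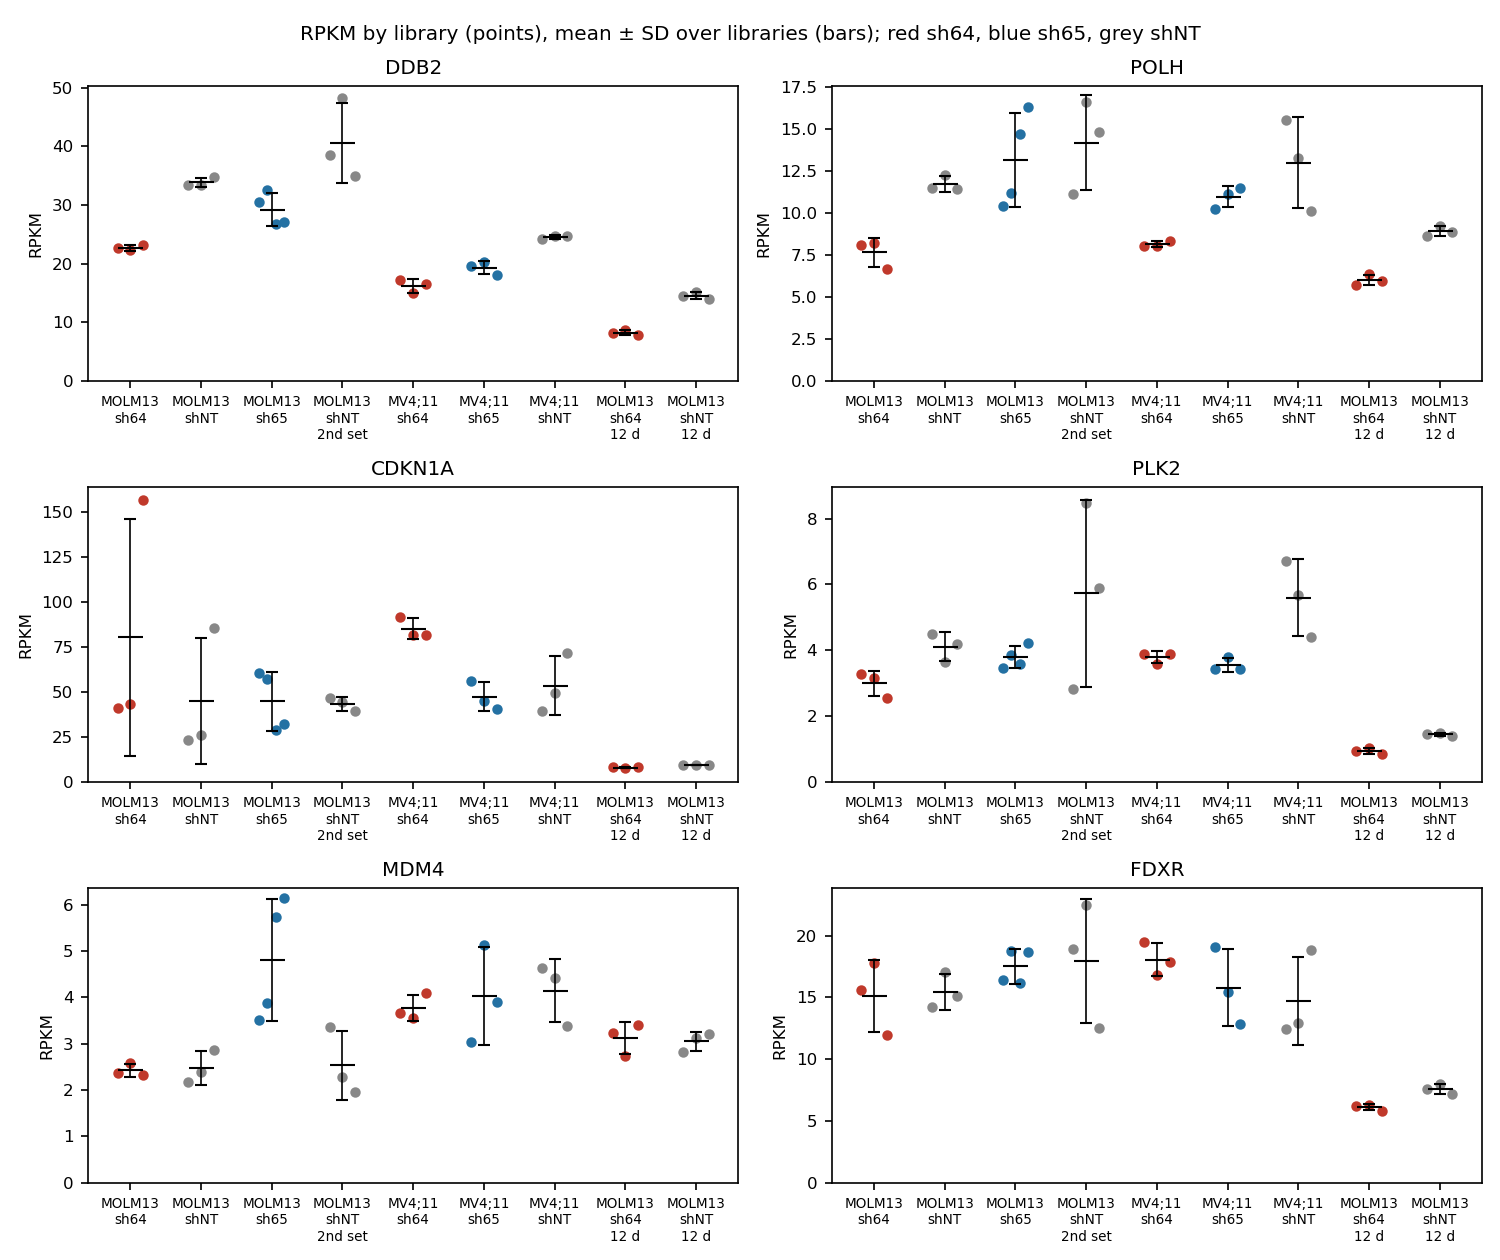
RPKM of DDB2, POLH, CDKN1A, PLK2, MDM4 and FDXR in each library (points) of the 9 groups, with mean ± SD over libraries (3 libraries a group, 4 with sh65 in MOLM13); red is shMBNL1-64, blue shMBNL1-65, grey shNT. DDB2 lies below its controls in every pair of groups, down to 8.22 against 14.5 RPKM at 12 days, and CDKN1A spreads over 23.1 to 156 RPKM in the earliest MOLM13 set.

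The remaining repair genes did not follow DDB2. RRM2B, the p53-induced ribonucleotide reductase subunit, was at 15.3, 13.5 and 15.5 RPKM with shMBNL1-64 at 12 days, against 10.7, 11.1 and 11.9 RPKM with shNT, wholly above its controls (log2 change 0.37, SE 0.06, adjusted p = 0.0022, limma). An adjusted p under 0.05 was reached by 49.7% of all genes at 12 days. XPC, the lesion sensor of nucleotide excision repair, was at 7.45 ± 0.24 RPKM at 12 days with shMBNL1-64 and 6.76 ± 0.20 RPKM with shNT (SD, 3 libraries each; log2 change 0.12, adjusted p = 0.042). ASCC3, a helicase of alkylation damage repair, was at 14.4 to 15.1 RPKM with shMBNL1-64 and 15.3 to 15.9 RPKM with shNT at 12 days (log2 change -0.07), and its change with shMBNL1-65 in MOLM13 was 0.42. None of the 3 was called in any knockdown comparison.

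Among the cell cycle genes, CDKN1A (p21) varied widely between libraries. With shMBNL1-64 in MOLM13 it was at 41.1, 43.2 and 156 RPKM in libraries 1, 2 and 3, against 23.1, 25.9 and 85.2 RPKM with shNT. The groups overlapped, but the knockdown library was higher in each same-numbered pair. Without the block the log2 change of 0.80 had an SE of 0.70 and an adjusted p of 0.76, and with the replicate block it had an SE of 0.07 and an adjusted p of 0.0070, which made CDKN1A the only p53 target called (limma; 0.0070 to 1.0 over 15 alternatives). The block called 3.81% of all genes higher and 3.28% lower, and 29.4% passed an adjusted p under 0.05, against 6 of 28 targets, 3 higher and 3 lower.

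In MV4;11, CDKN1A was at 91.6, 81.5 and 81.6 RPKM with shMBNL1-64 and at 56.1, 44.9 and 40.4 RPKM with shMBNL1-65, against 39.3, 49.5 and 71.4 RPKM with shNT. The shMBNL1-64 libraries exceeded all others and the shMBNL1-65 libraries overlapped the controls. CDKN1A rose with shMBNL1-64 (log2 change 0.70, SE 0.20, adjusted p = 0.065, limma), to 159% of control, and the log2 change with shMBNL1-65 was -0.15 (SE 0.22, adjusted p = 0.73). The rise was called in neither of the fits that left out shNT library 1 or 2 nor in any that left out a shMBNL1-64 library (log2 change 0.51 to 0.73), and stood without shNT library 3 (0.93). In all, the call held in 4 of 14 alternatives and ended in 10, with a pseudocount of 0.1 (0.71) and centring on the median (0.66) among them.

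CDKN1A was low at 12 days and did not rise. It was at 7.96, 7.52 and 7.94 RPKM with shMBNL1-64, against 9.42, 9.29 and 9.17 RPKM with shNT, wholly below the controls (log2 change -0.23, SE 0.04, adjusted p = 0.0027, limma). Of all genes, 49.7% had an adjusted p under 0.05 at 12 days, in either direction. CDKN1A was also followed with the other hairpin. With shMBNL1-65 in MOLM13 it was at 60.4, 57.1, 28.7 and 32.1 RPKM, against 46.6, 44.1 and 39.1 RPKM with shNT, with full overlap (log2 change -0.03, SE 0.27, adjusted p = 0.97).

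PLK2, a polo-like kinase gene with the perfect element shown above, had negative changes in all 5 comparisons. So did DDB2, POLH, CCNG1, RPS27L, PPM1D and FBXO22, and the share of all genes with this pattern was not counted. It was at 3.26, 3.14 and 2.56 RPKM with shMBNL1-64 in MOLM13, against 4.49, 3.63 and 4.20 RPKM with shNT, and at 0.931, 1.03 and 0.853 RPKM at 12 days, against 1.45, 1.49 and 1.39 RPKM with shNT. In MV4;11 it was at 3.88, 3.57 and 3.89 RPKM with shMBNL1-64 and 3.42, 3.79 and 3.44 RPKM with shMBNL1-65, against 6.72, 5.70 and 4.39 RPKM with shNT. With shMBNL1-65 in MOLM13 it was at 3.46, 3.86, 3.59 and 4.22 RPKM, against 2.81, 8.49 and 5.91 RPKM with shNT, the only comparison with overlap. The share of all genes that lay below their controls this often was not counted, and the MV4;11 comparisons share their shNT libraries.

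The PLK2 log2 changes were -0.36, -0.40, -0.45, -0.52 and -0.34, with shMBNL1-64 and shMBNL1-65 in MOLM13, shMBNL1-64 and shMBNL1-65 in MV4;11 and shMBNL1-64 at 12 days. None was called, and only the 12-day change passed an adjusted p under 0.05 (0.00077, limma). With the replicate block the shMBNL1-64 change in MOLM13 had an adjusted p of 0.045, over a range of 0.045 to 1.0 in its 15 alternatives. Without the second-set shNT library with 2.81 RPKM the shMBNL1-65 change in MOLM13 was -0.76 and called (adjusted p = 0.036), over a range of 0.036 to 0.87 in its 15 alternatives. Leaving out MV4;11 shNT library 3 likewise brought calls with both hairpins, at -0.59 and -0.66.

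BTG2 was at 22.2, 18.1 and 16.6 RPKM with shMBNL1-64 and 13.9, 10.0 and 11.1 RPKM with shMBNL1-65 in MV4;11, against 10.2, 12.6 and 14.7 RPKM with shNT. The shMBNL1-64 libraries were above both other groups, with a log2 change of 0.57 that was not called. In MOLM13 its changes were 0.04 and -0.54 with shMBNL1-64 and shMBNL1-65, where the controls spread over 6.23 to 77.1 RPKM and over 7.48 to 32.2 RPKM. CCNG1 (cyclin G1), GADD45A (a stress sensor of growth arrest), PLK3 (a polo-like kinase) and SERTAD1 (a regulator of CDK4 and E2F) were called in no comparison, with log2 changes between -0.26 and 0.35.

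**Figure D3:**
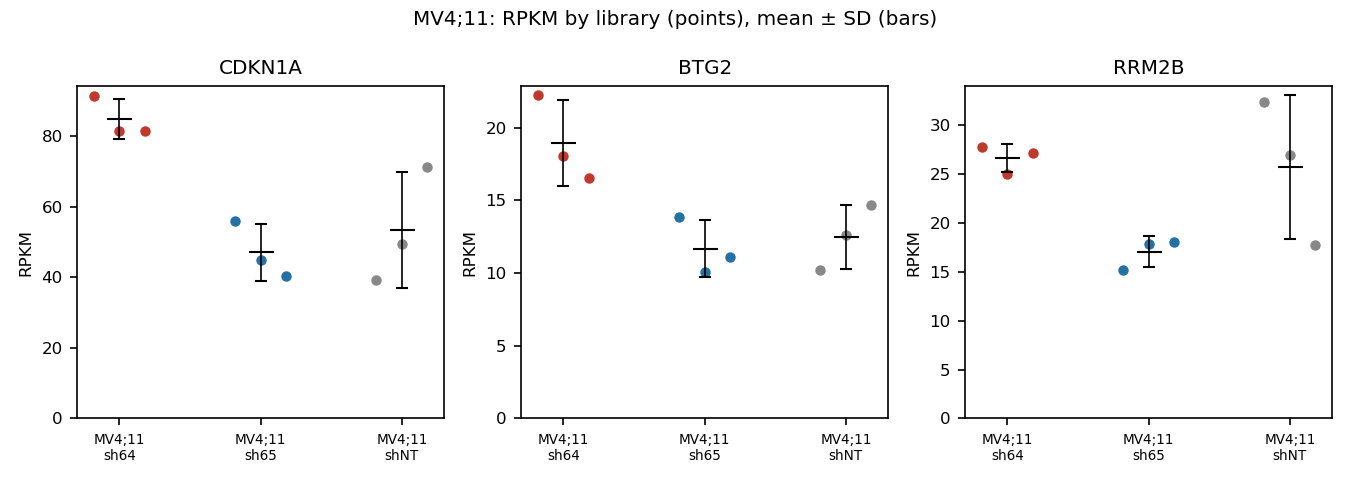
RPKM of CDKN1A, BTG2 and RRM2B in MV4;11 by library (points) with mean ± SD (3 libraries a group). The shMBNL1-64 libraries exceed the shMBNL1-65 libraries in all 3 genes, and for RRM2B the shNT libraries span 17.8 to 32.4 RPKM.

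The 2 hairpins were compared directly in MV4;11, since they leave different amounts of MBNL1. With shMBNL1-64 over shMBNL1-65, 3 of 29 targets were higher and 0 lower, against 1.55% and 1.83% of all genes. These were CDKN1A (log2 difference 0.85, SE 0.12, adjusted p = 0.0017), BTG2 (0.66, SE 0.13, adjusted p = 0.0092) and RRM2B (0.62, SE 0.08, adjusted p = 0.0016, limma). RRM2B was at 27.7, 25.1 and 27.1 RPKM with shMBNL1-64, against 15.2, 17.9 and 18.0 RPKM with shMBNL1-65, and the groups did not overlap. The shNT mean of RRM2B, 25.7 RPKM (17.8 to 32.4 RPKM), was near that with shMBNL1-64. CDKN1A and BTG2 averaged 53.4 and 12.5 RPKM with shNT, nearer to shMBNL1-65. At an adjusted p under 0.05, TP53INP1, GADD45A, ZMAT3 and XPC were higher as well and POLH was lower (8 of 29 targets), against 24% of all genes. TP53INP1, ZMAT3 and XPC averaged 2.40, 1.83 and 15.5 RPKM with shNT, near 2.49, 1.69 and 15.05 RPKM with shMBNL1-64. With shMBNL1-65 they averaged 1.66, 1.15 and 11.9 RPKM. GADD45A, at 4.17 RPKM with shNT, lay between the hairpins. In MOLM13 the hairpins were compared as changes over their own shNT sets, where 0 of 28 targets differed (1 at an unadjusted p under 0.05), against 0.7% of all genes higher and 1.42% lower.

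Of the genes that feed back on p53, MDM4, the p53-binding relative of MDM2, was the one called. It was at 3.50, 3.87, 5.73 and 6.14 RPKM with shMBNL1-65 in MOLM13, against 3.36, 2.27 and 1.96 RPKM with shNT. The lowest knockdown library was just above the highest control. MDM4 rose by a log2 change of 0.71 (SE 0.21, adjusted p = 0.17, limma), and without either of the lower controls or either of the higher knockdown libraries it was not called (0.59 to 0.66). The call held in 7 of 15 alternatives and ended in 8, with quantile normalization (0.60) and centring on the median (0.63) among them. MDM4 changes in the other 4 comparisons lay between -0.10 and 0.02. Relative depth moved with the groups here, at 0.559 to 0.776 with shMBNL1-65 and 0.379 to 0.46 with shNT, and the part of depth in the result was not tested.

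MDM2, the ubiquitin ligase that degrades p53 and is itself a target, was at 54.0, 49.7 and 53.7 RPKM with shMBNL1-64 and 47.6, 58.8 and 58.0 RPKM with shMBNL1-65 in MV4;11, against 93.5, 77.4 and 51.5 RPKM with shNT. A single control, library 3, overlapped the knockdown libraries. The log2 changes of -0.45 and -0.39 were not called, and without that control they were -0.69 and -0.63 and called. In MOLM13 the MDM2 changes were -0.02, 0.12 and, at 12 days, -0.06. PPM1D, the phosphatase that switches off p53, and FBXO22, a ubiquitin ligase subunit, changed by -0.22 to -0.03 with no call.

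Leaving out MV4;11 shNT library 3 altered the counts in that line beyond MDM2. With shMBNL1-64, 7 targets were then called, with CDKN1A, BTG2 and NINJ1 higher and MDM2, SESN1, PLK2 and POLH lower, against 13.5% of all genes higher and 5.58% lower. With shMBNL1-65, 5 were called, with NINJ1 higher and MDM2, PLK2, FAS and RRM2B lower, against 9.82% and 3.24% of all genes.

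The cell death targets held no call in the 5 comparisons. TNFRSF10A and TNFRSF10B, which encode the TRAIL receptors DR4 and DR5, went opposite ways at 12 days. TNFRSF10A was at 12.4, 11.9 and 12.2 RPKM with shMBNL1-64, against 10.6 RPKM in each of the 3 shNT libraries, and TNFRSF10B was at 14.8, 13.4 and 13.3 RPKM, against 16.7, 16.9 and 16.9 RPKM. Neither pair of groups overlapped, and the log2 changes were 0.18 (adjusted p = 0.0054) and -0.27 (adjusted p = 0.0033, limma). Such adjusted values were common at 12 days, where 49.7% of all genes were under 0.05.

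Other death genes were lower at 12 days by small amounts. PHLDA3, an inhibitor of AKT, was at 1.29 ± 0.18 RPKM with shMBNL1-64 and 1.69 ± 0.12 RPKM with shNT (adjusted p = 0.019), and TRIAP1, a mitochondrial survival factor, at 7.78 ± 0.17 RPKM with shMBNL1-64 and 9.0 ± 0.07 RPKM with shNT (SD, 3 libraries each; adjusted p = 0.0046, limma). FAS, the death receptor of the Fas ligand, ranged from a log2 change of -0.44 with shMBNL1-65 in MV4;11 to -0.01, and was below the level tested at 12 days. AEN, an apoptosis-enhancing nuclease, ranged over -0.27 to 0.45, TP53INP1, a p53 cofactor, over -0.34 to 0.40, and RPS27L, a ribosomal protein relative that binds MDM2, over -0.48 to -0.003. ZMAT3, a zinc finger RNA-binding protein, was tested only in MV4;11, with changes of -0.07 and -0.39.

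The metabolic targets followed no common direction. TP53I3 was at 1.20, 1.15 and 1.19 RPKM with shMBNL1-64 at 12 days, against 1.98, 1.89 and 2.1 RPKM with shNT, 59.3% of control without overlap (log2 change -0.46, SE 0.04, adjusted p = 0.00010, limma), and it was below the level tested elsewhere. FDXR, the ferredoxin reductase of mitochondria, was at 6.22, 6.31 and 5.84 RPKM at 12 days with shMBNL1-64, against 7.60, 8.02 and 7.18 RPKM with shNT (log2 change -0.27, adjusted p = 0.0032). Both adjusted values stand beside 49.7% of all genes under 0.05 at 12 days. SESN1, a sestrin that restrains mTORC1, had changes of -0.47 and -0.39 in MV4;11 and 0.05 to 0.20 in MOLM13, with no call, and TIGAR, which limits glycolysis, stayed between -0.14 and 0.03. NINJ1, a membrane protein of plasma membrane rupture, had changes of 0.46 and 0.39 in MV4;11, not called, and -0.04 to 0.04 in MOLM13.

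Changes were also compared between times and lines. The change with shMBNL1-64 in MOLM13 at 12 days was set against that in the earlier libraries, and 0 of 29 targets differed (1 at an unadjusted p under 0.05), against 0.217% of all genes higher and 0.18% lower. With the earliest libraries blocked by number, CDKN1A differed, at a log2 difference of -1.02 (SE 0.07, adjusted p = 0.00053, limma), its change being -0.23 at 12 days and 0.80 in the earlier set. This fit called 0.898% of all genes higher and 0.813% lower, and 3 of 29 targets passed an adjusted p under 0.05, all lower, against 10.8% of all genes. For MV4;11 against MOLM13, 0 of 29 targets differed with shMBNL1-64 (0 at an unadjusted p under 0.05), against 0.308% of all genes higher and 0.345% lower. With shMBNL1-65, 0 of 29 differed (3 at an unadjusted p under 0.05), against 0.387% higher and 0.425% lower.

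The lines themselves differed in their control levels. In MV4;11 shNT against MOLM13 shNT of the second set, 3 of 29 targets were called higher and 1 lower, against 6.61% and 7.62% of all genes. TP53INP1 was at 3.23, 2.30 and 1.68 RPKM in MV4;11, against 0.553, 0.837 and 0.624 RPKM in MOLM13 (log2 difference 1.00, adjusted p = 0.012). ZMAT3 was at 2.1, 1.87 and 1.53 RPKM in MV4;11, against 0.358, 0.729 and 0.602 RPKM in MOLM13 (0.86, adjusted p = 0.013, limma). Neither gene overlapped between the lines.

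MDM2 was at 93.5, 77.4 and 51.5 RPKM in MV4;11, against 30.8, 51.0 and 37.7 RPKM in MOLM13, with the lowest MV4;11 library just above the highest MOLM13 library (log2 difference 0.87, adjusted p = 0.053, limma). DDB2 was the one lower target, at 24.1, 24.7 and 24.8 RPKM in MV4;11, against 38.5, 48.3 and 34.9 RPKM in MOLM13, without overlap (-0.69, adjusted p = 0.033). Leaving out MV4;11 shNT library 1 or 2 left 2 called targets, both higher, and the shares of all genes called in those fits are not given here.

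**Figure D4:**
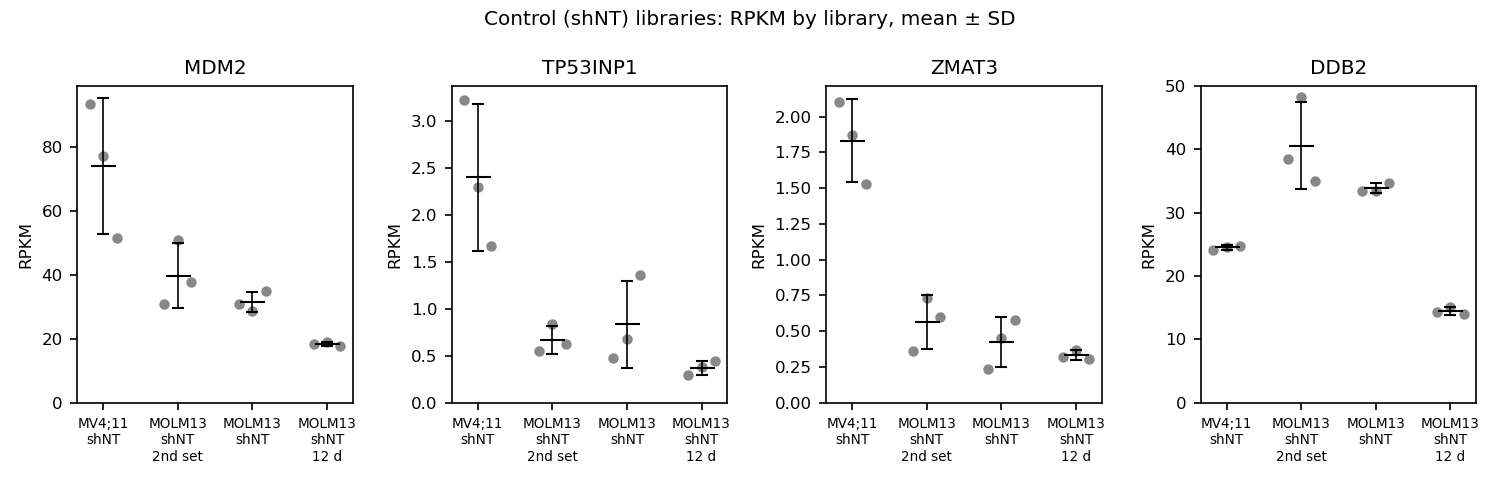
RPKM of MDM2, TP53INP1, ZMAT3 and DDB2 in the shNT libraries of each set (points), with mean ± SD (3 libraries a group). MDM2, TP53INP1 and ZMAT3 are highest in MV4;11, and DDB2 is lowest in the 12-day set at 14.0 to 15.2 RPKM.

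Genes around p53 were followed as fixed lists. Of 25 p53 regulators, 23 had an RPKM value and 20 or 21 were tested in each comparison. CHEK1, a checkpoint kinase, fell with shMBNL1-65 in both lines (log2 change -0.63 in each, adjusted p = 0.14 in MOLM13 and 0.082 in MV4;11). ATM, the kinase that activates p53 after double-strand breaks, rose with shMBNL1-65 in MOLM13 (1.03, adjusted p = 0.17), and CDKN2A, which encodes the MDM2 inhibitor ARF, rose with shMBNL1-65 in MV4;11 (0.59, adjusted p = 0.089, limma). With shMBNL1-64 no regulator was called in any of its 3 comparisons, while the replicate block called CHEK1 and USP10 lower in MOLM13.

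Of 40 further p53 targets, 38 had a value. With shMBNL1-64, PTP4A1, a tyrosine phosphatase, fell in MOLM13 (-0.73, adjusted p = 0.21) and MV4;11 (-0.82, adjusted p = 0.025), and the BH3-only death gene PMAIP1 (0.85, adjusted p = 0.014), the plexin gene PLXNB2 (0.97, adjusted p = 0.029) and SUSD6 rose in MV4;11. At 12 days only TNFRSF10D, a TRAIL decoy receptor, was called, lower (-0.60, adjusted p = 0.00018, limma), and not without shMBNL1-64 library 3 or shNT library 1 of that set. The PTP4A1 call in MOLM13 ended without shNT library 1, and the replicate block added PLXNB2 and ZNF561, both higher. No further target was called with shMBNL1-65 in either line. Without library a of the second MOLM13 shNT set, 2 were called with shMBNL1-65 in MOLM13, against 5.74% of all genes higher and 3.13% lower. Without MV4;11 shNT library 3, 8 were called with shMBNL1-64 in MV4;11, against 13.5% of all genes higher and 5.58% lower. Leaving out that library gave 7 with shMBNL1-65 in MV4;11, against 9.82% of all genes higher and 3.24% lower. The tested genes of this list numbered 28, 29, 27, 26 and 27.

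Genes that p21 and DREAM repress were lower in several comparisons. Of 20 tested, 0 were called with shMBNL1-64 in MOLM13 (12 lower with the replicate block), 13 lower with shMBNL1-65 in MOLM13, 6 lower with shMBNL1-64 and 8 with shMBNL1-65 in MV4;11, and 0 at 12 days. None was higher. Of all genes, 1.09% (3.28% with the block), 1.48%, 2.62%, 1.85% and 2.25% were called lower, in the same order. Their median log2 changes were -0.64, -0.77, -0.51, -0.43 and -0.13, against -0.001, 0.052, 0.013, 0.06 and 0.044 over all genes. CDKN1A itself averaged 44.6 RPKM with shMBNL1-65 in MOLM13 (shNT 43.3) and 47.1 RPKM in MV4;11 (shNT 53.4). With shMBNL1-64 it averaged 80.2 RPKM in MOLM13 (shNT 44.7) and 84.9 RPKM in MV4;11. Its part in these counts was not tested. CDK1, the mitotic kinase, fell to 16.0 ± 4.40 RPKM with shMBNL1-65 in MOLM13, against 32.2 ± 6.20 RPKM with shNT (SD, 4 and 3 libraries; log2 change -0.98, adjusted p = 0.14). In MV4;11 it fell to 5.59 ± 0.27 RPKM with shMBNL1-64 and 5.50 ± 0.65 RPKM with shMBNL1-65, against 11.3 ± 2.47 RPKM with shNT (-0.88 and -0.91, adjusted p = 0.025 and 0.045, limma).

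CCNA2 (cyclin A2) and TOP2A (topoisomerase II alpha) were called in the same 3 comparisons. With all 28 libraries in 1 fit the counts were 0 in every comparison, and with all 6 MOLM13 shNT libraries as controls the shMBNL1-65 count in MOLM13 was 0. Leaving out single libraries gave 3 to 16 with shMBNL1-65 in MOLM13, 4 to 11 with shMBNL1-64 in MV4;11 and 5 to 8 with shMBNL1-65 in MV4;11. Of all genes, 0.71% to 3.13%, 1.78% to 5.58% and 1.4% to 3.24% were called lower in these fits, in that order. At 12 days, where none was called, 10 were lower and 1 higher at an adjusted p under 0.05, which 49.7% of all genes passed. In MV4;11 shNT against MOLM13 shNT all 20 were called lower, against 7.62% of all genes.

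Stress and interferon genes were followed as further fixed lists. IFI6, an interferon-induced mitochondrial protein, rose with both hairpins in MV4;11 (1.35 and 1.06) and at 12 days (2.57, adjusted p = 0.00016), where IFI27 (1.08) and ISG15 (0.77) also rose. Of the stress response genes regulated by ATF4, CHAC1, ASNS and PSAT1 fell with shMBNL1-64 in MOLM13 (-0.68, -0.79 and -0.90), and at 12 days CHAC1 fell (-0.81) and SLC7A11 rose (1.03, limma). The replicate block added PHGDH, also lower, in MOLM13. USP10, ZNF561 and PHGDH were named after their values were seen. The immediate early gene IER2 rose with shMBNL1-64 in MOLM13 (0.85) and DUSP2 in MV4;11 (0.92).

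Splicing of the targets was measured as percent spliced in (PSI), the share of junction reads that support the examined form, on a scale of 0 to 1. Read counts behind each PSI are not given in the table used, so its depth is unknown. Intron retention made up 84 of the 203 events and cassette exons 50, and PLK3 (25 events) and MDM4 (23) held the most. Events were called where limma's unadjusted p reached 0.01 and PSI differed by over 0.1. With shMBNL1-64 in MOLM13, 0 of 177 tested events were called (5 at an unadjusted p under 0.05), against 0.813% of all events higher and 0.921% lower. With shMBNL1-65 in MOLM13, 1 of 179 was higher and 1 lower, against 0.666% and 0.613%.

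In MV4;11, 0 of 184 events were called with shMBNL1-64 (5 at an unadjusted p under 0.05), against 0.78% higher and 0.857% lower, and 0 of 183 with shMBNL1-65 (8 at an unadjusted p under 0.05), against 0.491% and 0.375%. At 12 days, 3 of 180 were higher and 2 lower, against 1.15% and 1.19%. None of the called events passed an adjusted p under 0.05, and 1 other event, in MDM4 at 12 days, did. That was 1 of 180 target events at 12 days, against 832 of 79198 events over all genes. This event was not called, since its PSI difference did not exceed 0.1.

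The POLH event measured inclusion of exon 5 of 11, at chr6:43565433-43565602 in GRCh37, a coding exon of 170 bases. This length is not a multiple of 3, as for 59.1% of the 181 internal coding exons of the targets, so the reading frame differs between the forms with and without it. The exon (capitals) is shown with 60 bases of intron on either side (lower case), at chr6:43565373-43565662 on the plus strand, because POLH RNA and its exon 5 were both lower at 12 days.
POLH: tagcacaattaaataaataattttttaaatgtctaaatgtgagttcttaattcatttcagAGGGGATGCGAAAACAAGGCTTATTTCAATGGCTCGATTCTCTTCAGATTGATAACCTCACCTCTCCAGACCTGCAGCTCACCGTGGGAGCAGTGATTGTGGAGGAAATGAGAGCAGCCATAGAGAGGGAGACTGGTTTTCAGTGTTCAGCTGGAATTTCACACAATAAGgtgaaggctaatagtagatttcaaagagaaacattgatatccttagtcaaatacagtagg

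The MBNL binding word was counted on the gene's own strand as TGCT, with C also allowed as its opening letter (CGCT), as its closing letter (TGCC) or as both (CGCC). There were 0 in the exon and 0 in either flank, and 22.6% of the 177 internal coding exons of at least 50 bases in the targets also held none (median 1.23 per 100 bases). These counts say nothing about binding outside the window.

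Inclusion of POLH exon 5 was 0.846, 0.785 and 0.848 with shMBNL1-64 at 12 days, against 0.971, 0.973 and 0.938 with shNT. No library overlapped (PSI difference -0.13, SE 0.02, adjusted p = 0.12, limma), and the call ended without shNT library 1 or 2. In the earliest MOLM13 set it was 0.888, 0.869 and 0.788 with shMBNL1-64, against 0.910, 0.950 and 0.880 with shNT, with overlap (-0.07, adjusted p = 0.81). In MV4;11 with shMBNL1-64 it was 0.871, 0.976 and 0.8293, against 0.904, 0.937 and 0.984 with shNT, also with overlap. The shMBNL1-65 libraries lay at 0.905 to 0.947 in MOLM13 and 0.938 to 0.951 in MV4;11, against 0.935 to 0.982 and 0.904 to 0.984 with shNT.

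**Figure D5:**
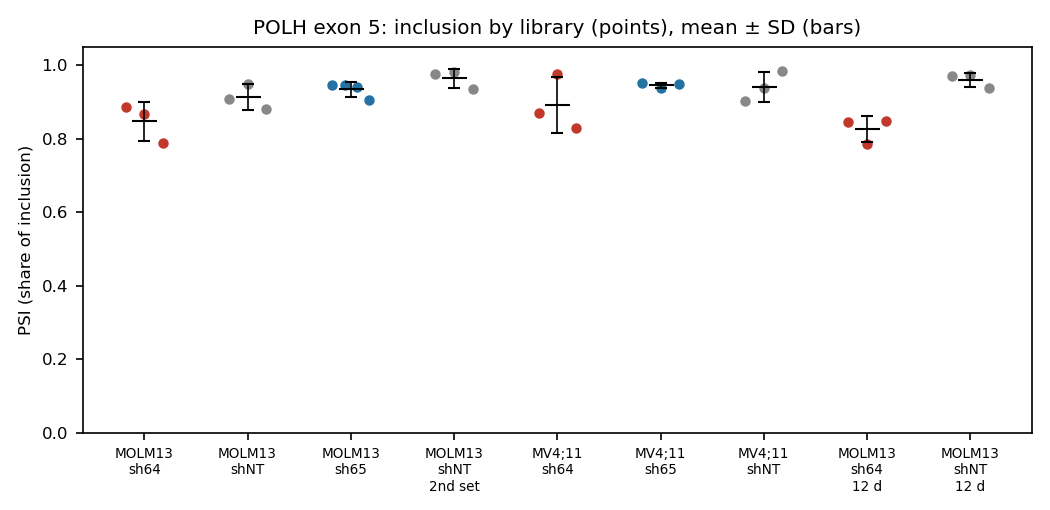
PSI of POLH exon 5 (vertical axis, share of inclusion from 0 to 1) in each library (points) of the 9 groups, with mean ± SD (3 libraries a group, 4 with sh65 in MOLM13). The 3 shMBNL1-64 libraries at 12 days lie at 0.785 to 0.848, below their controls at 0.938 to 0.973.

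MDM4 had 2 called events at 12 days in 1 junction cluster, both higher and both labelled intron retention by the authors' software. They read across the ends of a stretch (boundaries at chr1:204521280-204521281 and chr1:204521562-204521563) against a junction from chr1:204518290-204527769. This junction ends past the annotated end of MDM4 in GRCh37, at 204527248. Whether the stretch is an intron or an exon of the main MDM4 transcript was not checked. For the first boundary PSI was 1.00, 0.966 and 1.00 with shMBNL1-64, against 0.900, 0.821 and 0.850 with shNT (difference 0.13, adjusted p = 0.15). For the other it was 1.00, 0.967 and 1.00, against 0.842, 0.872 and 0.889 (difference 0.12, adjusted p = 0.081, limma). The call at the first boundary ended without any shMBNL1-64 library or shNT library 2 or 3 (differences 0.11 to 0.14). The groups did not overlap in either, and MDM4 RNA was level at 12 days (3.12 ± 0.35 RPKM with shMBNL1-64 and 3.05 ± 0.20 RPKM with shNT).

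In ASCC3 the other 12-day call was a mirrored pair, in which the junction chr6:101054964-101073068 competes with one from a site inside the intron at chr6:101065774. The exon-to-exon junction had a PSI of 0.958, 0.901 and 0.970 with shMBNL1-64, against 0.815, 0.799 and 0.776 with shNT (difference 0.15, SE 0.02, adjusted p = 0.10, limma). The call ended without shMBNL1-64 library 1 or shNT library 2. The groups did not overlap at 12 days, but in the earliest MOLM13 set shNT library 3 alone stood at 0.605 beside 0.890 to 0.985 in the other 5 libraries of both arms. The 12-day shNT mean of 0.797 was the lowest of the 9 groups. At 12 days the shMBNL1-64 mean (0.943) was near those of shMBNL1-65 in MOLM13 (0.945) and the second shNT set (0.956).

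With shMBNL1-65 in MOLM13, the called events were in FAS and GADD45A. The FAS junction chr10:90767594-90768646, against the skipping junction chr10:90762951-90770296, had a PSI of 0.975, 0.975, 0.983 and 1.00 with shMBNL1-65, against 0.929, 0.853 and 0.810 with shNT (difference 0.12, adjusted p = 0.40). Other MOLM13 shNT libraries reached the shMBNL1-65 range, at 0.918, 1.00 and 0.982 in the earliest set and 0.867, 1.00 and 0.957 at 12 days. The spliced form of a GADD45A intron at chr1:68151221-68151708 had a PSI of 0.899, 0.813, 0.851 and 0.773 with shMBNL1-65, against 0.977, 0.983 and 1.00 with shNT (difference -0.15, adjusted p = 0.31, limma). Neither pair of groups overlapped, and neither event was called with shMBNL1-64. The FAS call ended in 6 of 7 fits that left out 1 library, all but that without library a of the shNT set (differences 0.09 to 0.12). The GADD45A call ended without any 1 of the 3 shNT libraries or shMBNL1-65 library 2 (-0.15 to -0.16).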

How the data were processed

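RNA from 28 MOLM13 and MV4;11 libraries was sequenced. The authors aligned reads to GRCh37 (hg19) with STAR (no version given in the sources used here). They deposited gene expression as RPKM and splicing as PSI, a fraction of junction reads (AltAnalyze, MultiPath-PSI). Both were used as deposited. In all 28 libraries 100% of low RPKM values were whole multiples of a step (tolerance 0.02), which gave relative depth. The second MOLM13 shNT set was used for shMBNL1-65 because it shares its treatment text, and its 3 columns could be tied to the group only.

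Limma 3.58.1 under R 4.3.3 was run on log2(RPKM + 1) for genes whose mean reached 1 RPKM in one of the groups, and for events measured in more than 50% of libraries of each group it was run on PSI. Adjusted p-values are Benjamini-Hochberg values over all genes or events tested. Log2 changes of low genes understate ratios of RPKM. Scripts were tested on simulated data. Replicate numbers were checked for pairing by correlating deviations from group means. Same-numbered libraries of the earliest MOLM13 set correlated positively (r 0.799 to 0.882), and those of the other sets ran from -0.645 to 0.069. In MV4;11, shMBNL1-65 library 1 went with shNT library 3 (r 0.666), and shMBNL1-65 library 3 with shNT libraries 1 and 2 (0.481 and 0.409). Members and lists were chosen with earlier results of these data known. All members are named; of the other lists, the at most 4 genes called in most comparisons, with ties by smallest p, and SUSD6, which was added after its values were seen. Junction ends of member events fell on GRCh37 exon edges in 616 of 812 cases (75.9%). Alternatives covered pseudocount, filter, normalization, control set, block and single libraries left out. Some items that these rules would name are not reported here. The deposited comparison columns were not used. Figures were drawn with matplotlib 3.10.9.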

Additional observations from a re-analysis of the deposited data

Results flagged for a closer look

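CDKN1A is given here because its change with shMBNL1-64 in MOLM13 differed between the 12-day and the earlier libraries when the earlier libraries were blocked by number, with a log2 difference of -1.023 (12 days minus earlier). The block in this fit was chosen after the pairing of those libraries was seen. Without it the difference had the same size, an SE of 0.76 and an adjusted p of 1.0 (limma). The sets also differ in sequencing instrument, which cannot be told apart from time.

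For POLH exon 5, 1 of the 4 shMBNL1-65 libraries in MOLM13 lay apart, with a PSI of 0.905 beside 0.940 to 0.947 in the other 3. Its gap to the nearest library was 0.833 of the range of the group. Chance alone sets apart about 1 in 20 groups of this size.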

How the results depend on the processing

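Called p53 targets numbered 0, 1, 2, 0 and 1 with shMBNL1-64 and shMBNL1-65 in MOLM13, shMBNL1-64 and shMBNL1-65 in MV4;11 and shMBNL1-64 at 12 days. For the alternatives, the shares of all genes called higher and lower stand in brackets. A pseudocount of 0.1 gave 1 with shMBNL1-64 in MOLM13 (1.71% and 1.31%) and 2 with shMBNL1-65 in MOLM13 (2.74% and 1.52%). It gave 2 with shMBNL1-65 in MV4;11 (3.23% and 2.49%) and 2 at 12 days (5.27% and 3.35%). With shMBNL1-64 in MV4;11 it exchanged CDKN1A for DDB2 beside POLH (4.93% and 4.01%). A pseudocount of 0.5 gave 1 with shMBNL1-64 in MOLM13 (1.59% and 1.24%) and 4 in MV4;11 (4.72% and 3.32%). Without the filter on low values 0 were called with shMBNL1-65 in MOLM13 (0.38% and 0.335%) and 0 with shMBNL1-64 in MV4;11 (0.67% and 0.862%). In these comparisons, requiring an adjusted p under 0.05 left 0 (0% and 0.00985%) and 1 (2.6% and 2.37%). Centring on the median gave 0 with shMBNL1-65 in MOLM13 (1.02% and 2.08%) and 1 in MV4;11 (1.1% and 2.78%). Quantile normalization also gave 1 with shMBNL1-65 in MV4;11 (1.17% and 2.68%). With shMBNL1-64 in MV4;11 centring exchanged CDKN1A for DDB2 (2.91% and 3.34%), and quantile normalization added DDB2 (2.95% and 3.44%). With shMBNL1-65 in MOLM13 quantile normalization exchanged MDM4 for PHLDA3, lower (1.16% and 1.76%). All 6 MOLM13 shNT libraries as controls gave 2 with shMBNL1-64 (2.49% and 1.58%). All 28 libraries in 1 fit gave 1 with shMBNL1-64 in MV4;11 (4.54% and 1.61%). The replicate block gave 1 with shMBNL1-64 in MOLM13 (3.81% and 3.28%). It gave 1 for the 12-day against earlier difference (0.898% and 0.813%), a fit added after seeing the data. For splicing, the replicate block gave 1 event with shMBNL1-64 in MOLM13 and 1 at 12 days, while an adjusted p under 0.05, or a PSI difference over 0.2, left 0 with shMBNL1-65 in MOLM13 and 0 at 12 days. The shares of all events called in these splicing fits are not given here.

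Leaving out each library in turn gave 0 targets with shMBNL1-64 in MOLM13, 0 to 3 with shMBNL1-65 in MOLM13, 0 to 7 and 0 to 5 with shMBNL1-64 and shMBNL1-65 in MV4;11, and 1 at 12 days. Of all genes, 0.59% to 2.23%, 0.838% to 5.74%, 1.94% to 13.5%, 1.08% to 9.82% and 3.14% to 3.7% were called higher, in that order. The shares called lower were 0.571% to 1.42%, 0.71% to 3.13%, 1.78% to 5.58%, 1.4% to 3.24% and 2.03% to 2.36%. Leaving out single libraries also gave 0 to 1 targets differing between the times, 0 to 2 and 0 to 3 between the lines with shMBNL1-64 and shMBNL1-65, 0 to 2 and 2 to 3 between the hairpins in MOLM13 and MV4;11, and 2 to 5 between the shNT controls. Called splicing events numbered 0 to 1, 0 to 5, 0 to 1, 0 to 3 and 1 to 4 in the order of the opening sentence of this section, against 0, 2, 0, 0 and 5 with all libraries. For these differences and splicing counts, the shares of all genes or events called in the same fits are not given here. The counts can therefore not be judged against them. Across single results and alternatives, 1976 values stayed on their side of the threshold, 63 fell short of it and 31 came past it. No called value changed sign in its alternatives (0 of 127), while 112 of 1943 values of uncalled results did. MV4;11 and 12-day libraries were not paired by number, and there the block left the counts of called targets as they were. Read depth behind PSI is unknown.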
